A study of Mus musculus with 4 samples.

Results

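Amino acid transporters were examined in peritoneal macrophages of mice fed a high-fat or a control diet. The genes were taken by name: every row of the count tables whose symbol starts with Slc1a, Slc3a, Slc6a, Slc7a, Slc36a, Slc38a or Slc43a followed by a number. This gave 64 of 24625 gene rows. Of these, 61 are carriers or carrier subunits, and 3 (Slc7a6os, Slc6a19os and Slc36a1os) are separate genes named for lying opposite a carrier gene. The high-fat group had 2 libraries from C57BL/6 mice that received 60% of dietary energy as fat for 12 weeks, and the control group had 2 libraries from C57BL/6 mice on standard chow for the same time. All mice were also injected intraperitoneally with 3% thioglycollate, which irritates the peritoneum and recruits macrophages, and cells were collected 4 days later, so the controls too are elicited macrophages. No genetic change is named for either group, and age and sex are not stated in the labels. Nothing in the labels says whether the libraries were made from separate mice or pools. Each p-value sets the diet difference against the spread between libraries of the same diet, which may therefore be technical.

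Amino acids cross membranes through carriers, many of which swap 1 amino acid for another, while others are driven by sodium or protons. The Slc7a light chains reach the cell surface bound to a heavy chain of the Slc3a family, with the cationic carriers of that family working alone. Slc1a4, Slc1a5 and Slc38a carriers move glutamine, alanine, serine and related amino acids, and the other Slc1a carriers move glutamate. Slc6a carriers move taurine, creatine, glycine and neurotransmitters, and Slc43a2 moves large neutral amino acids. Several Slc36a and Slc38a members lie in lysosomes, where macrophages release amino acids from digested material and where the growth kinase complex mTORC1 senses them. In macrophages, arginine uptake feeds nitric oxide synthase and arginase, and cystine uptake feeds glutathione.

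Gene counts were 45658551 and 40527591 in high-fat replicates 1 and 2, and 39846646 and 39347347 in control replicates 1 and 2. Macrophage identity markers (9 kept, 8 below 0, Mertk called lower) summed to 19954 and 24405 CPM (counts scaled to a common library total) in the high-fat libraries, against 26766 and 25714 CPM in the control libraries. Most of each sum was Lyz2, at 16399 and 20995 CPM in high-fat libraries and 22930 and 22094 CPM in control libraries. Markers of other peritoneal cells were far lower, and some moved with diet. Mesothelial and fibroblast markers (12 kept, 12 with a log2 fold change above 0, only Lum called) summed to 177 and 87.4 CPM with high-fat diet and to 22.0 and 29.4 CPM with control diet. Neutrophil markers (9 kept, 9 below 0, Mmp9 and Csf3r called) summed to 80.9 and 67.3 CPM with high-fat diet and to 112 and 116 CPM with control diet. Elane was at 0 counts in all 4 libraries, and Mpo, Ngp and Camp were at most 0.052 CPM in any library. S100a8 was at 17.0 to 24.5 CPM over the libraries and S100a9 at 0.22 to 0.80 CPM. The cell source of the Mmp9 and Csf3r reads was not tested. Dendritic cell markers (6 kept, 6 below 0, Cd209a called) summed to 3.94 and 4.68 CPM with high-fat diet, against 11.0 and 11.5 CPM with control diet. Eosinophil markers (4 kept, 4 below 0, Alox15 called) summed to 5.39 and 8.36 CPM with high-fat diet, against 12.4 and 21.9 CPM with control diet. The other kept ones were Ccr3 (−2.22), Siglecf (−1.32) and Il5ra (−0.07). Epx and Prg2 were at most 0.052 CPM in any library, and the cell source of the Alox15 reads was not tested. B cell markers (10 kept, Igj called) summed to 115 and 210 CPM against 126 and 116 CPM, and T and NK cell markers (8 kept, none called) to 4.63 and 25.2 CPM against 6.41 and 8.14 CPM, high-fat before control in each case. Mast cell markers (7 kept, none called) summed to 68.3 and 88.1 CPM with high-fat diet and to 81.7 and 60.6 CPM with control diet. The part of these cells in the transporter values below was not tested. In such bulk RNA, fewer cells of a type and less RNA per cell cannot be told apart.

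No transporter gene passed an adjusted p of 0.05 between the diets, and in 19 of the 28 expressed ones (67.9%) the values of the diets overlapped, beside 49.0% of all kept genes. The 28 genes with enough counts to be tested (about 10 counts in at least 2 libraries, called kept here) were 27 carriers and Slc7a6os. Of these, 27 reached that level in all 4 libraries, and Slc6a9 reached it in both high-fat libraries and 1 control library. Adjusted p-values come from edgeR's quasi-likelihood test over all 12747 kept genes, of which 78 passed, or 0.612%. At an unadjusted p under 0.05, 4 of the 28 transporter genes passed (14.3%), against 17.0% of all kept genes. Slc43a3 and Slc38a2 were the higher ones in high-fat libraries, and Slc43a2 and Slc36a1 the lower ones. DESeq2, which estimates the spread differently, called 2 of them, Slc43a2 and Slc43a3.

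Expression was concentrated in a few carriers. Levels of different genes are compared here as RPKM, counts per kilobase of merged exons scaled to CPM. The median kept gene of the whole table stood at 5.20 RPKM. Of the 64 rows, 22 were at or above 1 RPKM in all 4 libraries and 14 had no count in any. The order by mean RPKM over the 4 libraries began with Slc6a6 (64.5), Slc3a2 (56.9), Slc6a8 (44.1), Slc36a4 (32.4) and Slc38a2 (27.3), and this order was the same in either diet's mean. These 5 genes held 67.3% and 65.8% of the summed RPKM of all 64 rows in high-fat replicates 1 and 2, against 65.7% and 65.1% in control replicates 1 and 2. The next 5 were Slc1a5 (16.8), Slc7a6os (15.3), Slc38a7 (9.53), Slc38a1 (8.55) and Slc38a6 (8.06), also in that order in either diet. The summed RPKM of all rows was 341 and 330 in high-fat libraries and 367 and 326 in control libraries, so the diets overlapped.

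**Figure D1:**
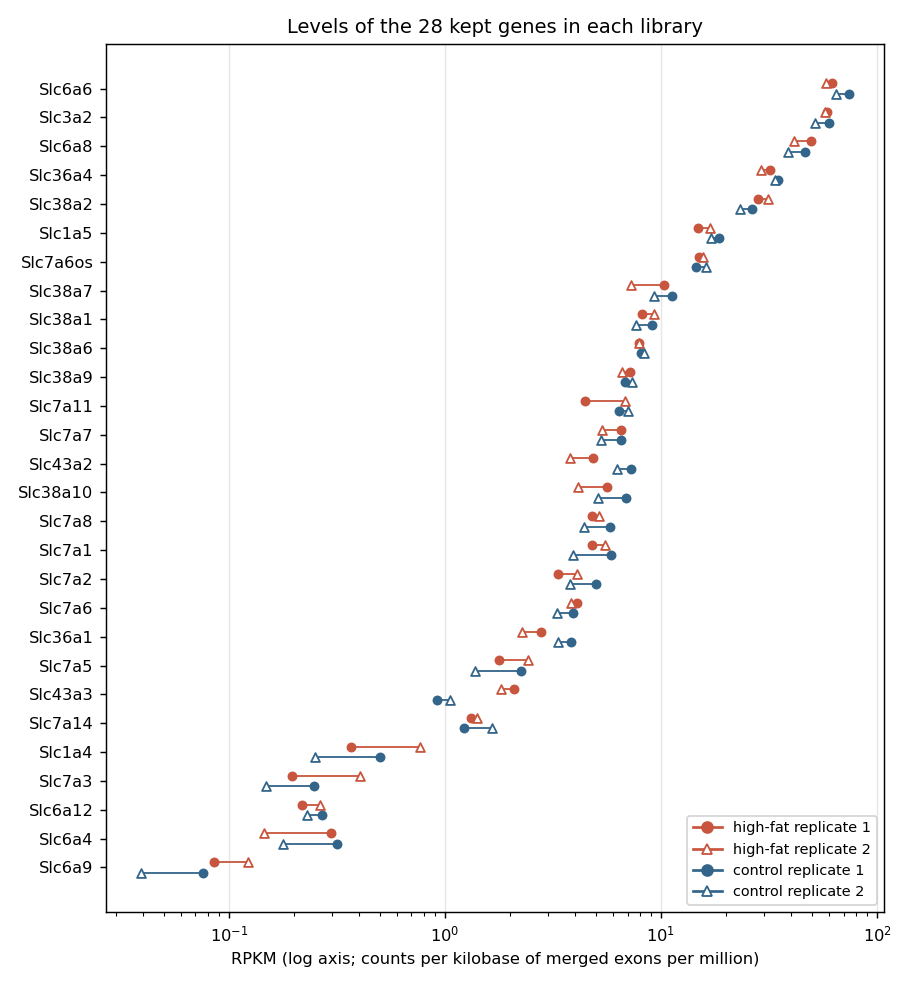
Level of each kept transporter gene in RPKM (log axis), with high-fat libraries above control libraries for each gene and a line joining the 2 libraries of a diet. Slc6a6, Slc3a2 and Slc6a8 lead in every library, and lines are long for Slc1a4, Slc7a3 and Slc6a4, which lie under 1 RPKM.

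Slc6a is the largest of these families, with 20 rows, and the least often expressed. It kept 5 genes and had 8 rows at 0 counts in all libraries. Slc6a6, the taurine carrier, had 380 and 358 CPM in high-fat replicates 1 and 2, against 456 and 398 CPM in control replicates 1 and 2. Both high-fat libraries lay below both control libraries. Its log2 fold change was −0.21 ± 0.11 (SE; 95% interval −0.46 to 0.03, adjusted p = 0.355). Slc6a6 ranked above 91.4% of kept genes by mean RPKM. Slc6a8, the creatine carrier, had 197 and 165 CPM with high-fat diet and 185 and 154 CPM with control diet, and here the diets overlapped (0.09 ± 0.13 on the log2 scale, 95% interval −0.19 to 0.38, adjusted p = 0.734). The other kept Slc6a genes were scarce. Slc6a4, the serotonin carrier, was counted 38 and 16 times in high-fat libraries and 35 and 19 times in control libraries. Slc6a12, a betaine and GABA carrier, was counted 26 and 27 times with high-fat diet, and 28 and 23 times with control diet. Slc6a9, a glycine carrier, had 13 and 16 counts in high-fat libraries, against 10 and 5 in control libraries, and its exons overlap those of Ccdc24 in the gene models. The neuronal carriers Slc6a2 (noradrenaline), Slc6a3 (dopamine), Slc6a5 (glycine), Slc6a7 (proline) and Slc6a11 (GABA) had no count in any library. A count of 0 allows up to 3 counts, or 0.0646 and 0.0751 CPM in high-fat replicates 1 and 2, and 0.0745 and 0.0773 CPM in control replicates 1 and 2, counting error only. Slc6a20b and Slc6a19os were also at 0. Of the 7 others below the filter, Slc6a19, a neutral amino acid carrier of gut and kidney, stood out in 1 library: it had 6 and 32 counts in high-fat replicates 1 and 2, against 7 and 2 in control replicates 1 and 2. The remaining 6 had at most 4 counts in a library.

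Slc3a2, the heavy chain also known as the CD98 heavy chain, was the second most abundant transporter transcript. It had 173 and 170 CPM with high-fat diet, against 177 and 153 CPM with control diet. The high-fat libraries lay between the control libraries. The log2 fold change was 0.05 ± 0.10 (95% interval −0.18 to 0.29, adjusted p = 0.810). Slc3a1, the other heavy chain, which works mainly in kidney and gut, had 1 and 2 counts in high-fat libraries and 5 and 1 in control libraries. The 6 light chains that pair with Slc3a2 (Slc7a5, Slc7a6, Slc7a7, Slc7a8, Slc7a10 and Slc7a11) summed to 21.6 and 23.6 RPKM in high-fat libraries, against 24.8 and 21.4 RPKM in control libraries. The heavy chain's RPKM was 2.70 and 2.43 times that sum in high-fat replicates 1 and 2, against 2.41 and 2.42 times in control replicates 1 and 2. These are ratios of transcripts, with no measure of protein.

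Among the light chains, Slc7a11 and Slc7a7 were the most abundant per kilobase. Slc7a11 averaged 5.63 RPKM with high-fat diet and 6.72 RPKM with control diet, and Slc7a7 averaged 5.93 and 5.90 RPKM in that order of diets. Slc7a11 encodes the light chain of the cystine and glutamate exchanger. Slc7a11 had 41.2 and 62.7 CPM in high-fat replicates 1 and 2, against 58.9 and 65.2 CPM in control replicates 1 and 2. High-fat replicate 1 alone was low, and high-fat replicate 2 lay between the control libraries. The log2 fold change was −0.26 ± 0.20 (95% interval −0.73 to 0.22, adjusted p = 0.537). Without high-fat replicate 1 it was 0.02 (adjusted p = 0.965), and without high-fat replicate 2 it was −0.59 (adjusted p = 0.00986), so the value rested on a single library. In these fits the diet left with 1 library is assumed to vary like the other. The promoter of Slc7a11 is printed because genes of the amino acid starvation response are known to carry an element bound by the transcription factor ATF4, and Slc7a11 is a textbook example. The letters TGATGNAA were searched on both strands in the 250 bases before each start in RefSeq's promoter table (GRCm38.p6), where 46 of the 64 genes matched by symbol. Of 32851 windows, 3.45% held them, and of 27025 genes, 3.91% did. They occurred in 2 of the 46 matched transporter genes, Slc7a11 and Slc7a7. Capitals mark both matches in Slc7a11, the first starting 66 bases before the start and the second, on the opposite strand, 47 bases before it. A match is a description of letters and not of binding.
Slc7a11, chr3:50443614-50443713, minus strand: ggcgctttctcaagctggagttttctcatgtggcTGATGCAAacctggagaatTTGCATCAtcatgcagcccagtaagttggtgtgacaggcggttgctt

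The other light chains showed overlapping diets throughout. Slc7a7, which exchanges cationic for neutral amino acids, had 16.3 and 13.4 CPM with high-fat diet and 16.3 and 13.2 CPM with control diet. Its log2 fold change was 0.01 ± 0.16, and its exons overlap those of Oxa1l in the gene models. Slc7a6, a second carrier of that kind, had 15.2 and 14.3 CPM with high-fat diet, against 14.6 and 12.4 CPM with control diet. Slc7a8, a light chain for small and large neutral amino acids, had 19.4 and 21.0 CPM in high-fat libraries, against 23.4 and 17.7 CPM in control libraries. Slc7a5, the main light chain for leucine and other large neutral amino acids, had 6.25 and 8.56 CPM with high-fat diet, against 7.90 and 4.82 CPM with control diet. Control replicates 1 and 2 thus lay further apart than the diet means in Slc7a7, Slc7a6, Slc7a8 and Slc7a5. The log2 fold change of Slc7a5 was 0.22 ± 0.26 (95% interval −0.38 to 0.81, adjusted p = 0.692). The adjusted p was 0.938 for Slc7a8 and 0.640 for Slc7a6.

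The cationic carriers that work without a heavy chain supply arginine and lysine. Slc7a1 had 34.7 and 39.9 CPM in high-fat libraries, against 42.5 and 28.2 CPM in control libraries, and both high-fat values lay between the control values. Slc7a2, which is known to be induced in alternatively activated macrophages, had 26.3 and 32.3 CPM with high-fat diet, against 39.2 and 29.8 CPM with control diet. Its log2 fold change was −0.24 ± 0.16 (95% interval −0.59 to 0.12, adjusted p = 0.467), and the groups overlapped. Slc7a1 stood at 1.43 and 1.34 times the RPKM of Slc7a2 in high-fat replicates 1 and 2, against 1.18 and 1.03 times in control replicates 1 and 2. That ratio was not tested. Slc7a3, the third carrier of this group, was under 1 CPM in all libraries, at 0.474 and 0.976 CPM with high-fat diet and 0.596 and 0.361 CPM with control diet. Slc7a14, a lysosomal relative of these carriers, had 11.7 and 12.4 CPM in high-fat libraries, between the 10.8 and 14.5 CPM of the control libraries. Slc7a6os, which is no carrier, had 22.9 and 23.8 CPM with high-fat diet and 22.1 and 24.5 CPM with control diet. Slc7a9, Slc7a10 and Slc7a12 had no count, and Slc7a4, Slc7a13 and Slc7a15 had at most 5 in a library. All 10 kept rows of the Slc7a family had overlapping diets, as did 49.0% of all kept genes, and their log2 fold changes ran from −0.26 to 0.58.

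Glutamine and other small neutral amino acids enter through Slc1a5, Slc38a1 and Slc38a2. Slc38a2, a sodium-driven carrier known to be raised by amino acid shortage, had 130 and 145 CPM in high-fat replicates 1 and 2, against 123 and 107 CPM in control replicates 1 and 2. Both high-fat libraries lay above both control libraries. The means differed 1.20-fold (log2 fold change 0.26 ± 0.11, 95% interval 0.02 to 0.50, unadjusted p = 0.0361, adjusted p = 0.266). Slc1a5, an exchanger of glutamine for other neutral amino acids, had 41.0 and 46.7 CPM with high-fat diet, against 51.0 and 47.0 CPM with control diet. High-fat replicate 2 and control replicate 2 were nearly level. The log2 fold change of Slc1a5 was −0.16 ± 0.11 (95% interval −0.40 to 0.08, adjusted p = 0.471). Slc38a1 had 68.3 and 78.0 CPM in high-fat libraries, against 76.4 and 64.1 CPM in control libraries, so the diets overlapped. Slc1a4, which resembles Slc1a5 and carries alanine, serine and cysteine, had 1.44 and 3.00 CPM with high-fat diet, against 1.96 and 0.979 CPM with control diet. Its log2 fold change of 0.59 ± 0.44 had an adjusted p of 0.522, and it was called only without high-fat replicate 1 (1.03, adjusted p = 0.0287). The glutamate carriers of the Slc1a family, known mainly from brain, were at or near 0: Slc1a6 and Slc1a7 had no count. Slc1a3 had at most 3 counts in a library, Slc1a1 had 5 and 8 with high-fat diet against 8 and 6 with control diet, and Slc1a2 had 9 and 9 against 12 and 9.

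The members known from lysosomes included the only Slc36a gene with an unadjusted p under 0.05. Slc36a1, a proton-driven exporter of small neutral amino acids from lysosomes, had 14.7 and 11.9 CPM in high-fat replicates 1 and 2, against 20.1 and 17.6 CPM in control replicates 1 and 2. Both high-fat libraries lay below both control libraries. The level with high-fat diet was 0.706 times that with control diet (log2 fold change −0.50 ± 0.15, 95% interval −0.84 to −0.17, unadjusted p = 0.00811, adjusted p = 0.159). It was called only without high-fat replicate 1 (−0.66, adjusted p = 0.0330). Slc36a4, a relative with high affinity for proline and tryptophan, had 62.0 and 56.3 CPM with high-fat diet and 67.1 and 65.5 CPM with control diet. It too did not overlap, and its log2 fold change was −0.16 ± 0.10 (95% interval −0.38 to 0.05, adjusted p = 0.416). Slc38a9, the lysosomal arginine sensor that signals to mTORC1, had 64.4 and 58.9 CPM in high-fat libraries, against 60.5 and 65.3 CPM in control libraries. The diets overlapped, and the interval of its log2 fold change was −0.25 to 0.19 (adjusted p = 0.901). Slc38a7, a lysosomal glutamine exporter, had 34.0 and 23.9 CPM with high-fat diet, against 36.8 and 30.4 CPM with control diet. Its level was higher in replicate 1 than in replicate 2 of both diets, and so was that of Slc38a10, at 30.5 and 22.4 CPM with high-fat diet and 37.2 and 27.7 CPM with control diet. Slc38a10 was called without high-fat replicate 1 (−0.54, adjusted p = 0.0455), and had a log2 fold change of −0.29 ± 0.19 (adjusted p = 0.460) with all 4 libraries. Slc38a6, a less studied relative, had 23.5 and 23.4 CPM with high-fat diet and 23.8 and 24.6 CPM with control diet. Relative to its level, that was the narrowest spread over the 4 libraries among the kept transporter genes. Of the other Slc36a and Slc38a rows, Slc36a2 had 11 and 13 counts in high-fat libraries and 5 and 9 in control libraries, and Slc38a4 had 13 and 1 against 6 and 9. Slc36a1os had 9 and 5 counts with high-fat diet and 16 and 7 with control diet. Slc38a3 was at 0, and Slc36a3, Slc38a5, Slc38a8 and Slc38a11 had at most 1 count in a library.

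Promoters of Slc36a1 and Slc38a7 are printed because both encode lysosomal carriers and hold the E-box letters CACGTG, which the factors that drive lysosomal genes are known to bind. These letters read the same on both strands and were in 6.02% of the RefSeq windows, or 6.86% of the genes in that source. They were in 8 of the 46 matched transporter genes, of which 3 were kept, the third being Slc7a14. The others, Slc43a1, Slc1a6, Slc1a7, Slc6a3 and Slc38a5, were below the filter. Capitals mark the match, which starts 31 bases before the start of Slc36a1 and 34 bases before that of Slc38a7. Coordinates are GRCm38.p6.
Slc36a1, chr11:55204240-55204339, plus strand: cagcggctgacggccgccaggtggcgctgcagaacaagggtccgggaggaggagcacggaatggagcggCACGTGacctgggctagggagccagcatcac
Slc38a7, chr8:95853492-95853591, minus strand: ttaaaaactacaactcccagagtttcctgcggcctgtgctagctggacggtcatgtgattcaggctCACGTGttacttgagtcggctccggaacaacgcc

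The smallest p-values were in Slc43a, where neither kept gene overlapped between diets and the signs were opposite. Slc43a2, a carrier of leucine and other large neutral amino acids (15 exon blocks at chr11:75345196-75391074, plus strand, mm9), had 34.9 and 27.3 CPM in high-fat replicates 1 and 2, against 52.4 and 45.5 CPM in control replicates 1 and 2. The level with high-fat diet was 0.636 times that with control diet. The log2 fold change was −0.65 ± 0.14 (95% interval −0.96 to −0.35, unadjusted p = 0.000967, adjusted p = 0.0705). Slc43a3, a relative known as a carrier of purine nucleobases rather than amino acids (13 exon blocks at chr2:84776803-84798666, plus strand, mm9), had 5.41 and 4.71 CPM in high-fat libraries, against 2.38 and 2.76 CPM in control libraries. All high-fat values again lay outside the control values. The means differed 1.97-fold (log2 fold change 0.98 ± 0.21, 95% interval 0.51 to 1.44, unadjusted p = 0.000973, adjusted p = 0.0705). Neither gene passed the threshold. With DESeq2 the adjusted p was 0.00261 for Slc43a2 and 0.0361 for Slc43a3, and with no filter on low counts it was 0.00199 and 0.00933 for these genes in that order. Over all alternatives run, the adjusted p of Slc43a2 ranged from 5.2e-05 to 0.350 and that of Slc43a3 from 0.00513 to 0.341, with the direction kept in each. Per kilobase, Slc43a2 stood at 4.83 and 3.78 RPKM in high-fat libraries, against 7.25 and 6.29 RPKM in control libraries, and Slc43a3 at 2.08 and 1.81 against 0.917 and 1.06 RPKM. Slc43a1, the third gene of the family and another carrier of large neutral amino acids, had 4 and 4 counts with high-fat diet and 3 and 8 with control diet.

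**Figure D2:**
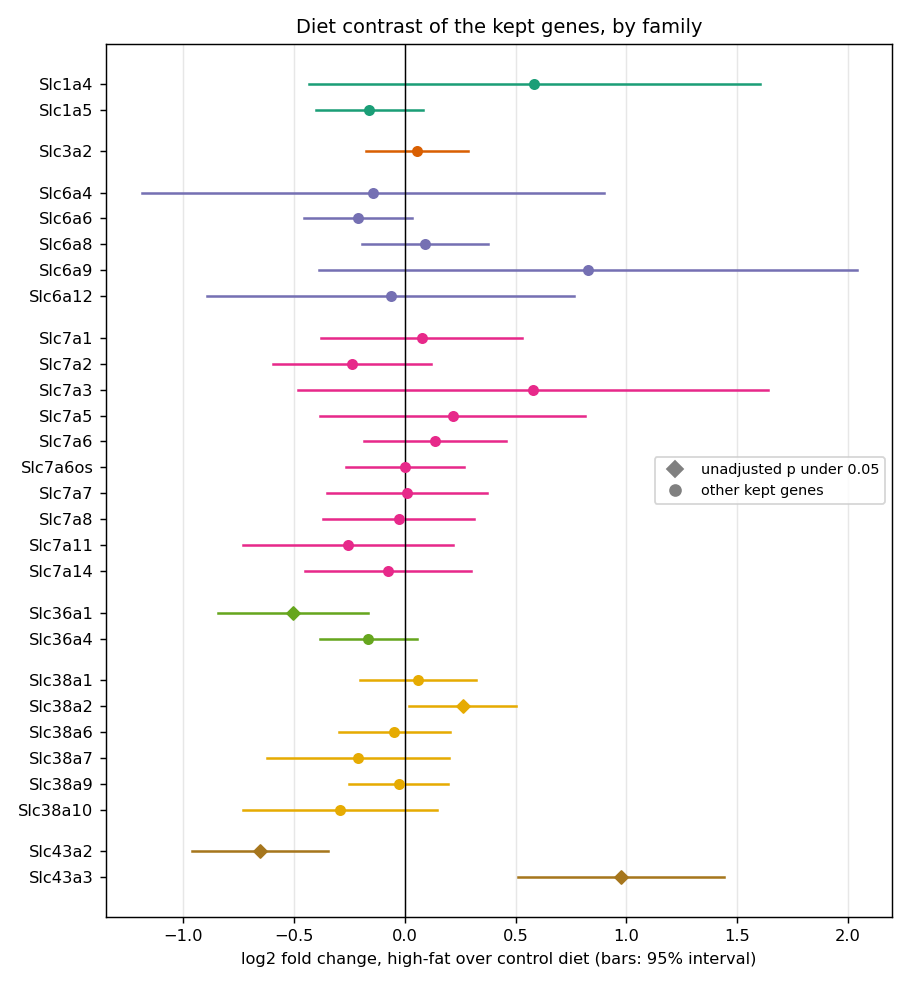
Log2 fold change of each kept transporter gene, high-fat over control diet, with its 95% interval, ordered by family. Diamonds mark an unadjusted p under 0.05: Slc36a1 (−0.50), Slc38a2 (0.26), Slc43a2 (−0.65) and Slc43a3 (0.98); the intervals of the other genes include 0.

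Across the 28 kept genes the log2 fold changes had a median of −0.03, beside −0.01 for all kept genes, with 13 above 0 and 15 below. The genes kept were chosen by count, so this describes the expressed members and not all 64. Their median absolute log2 fold change was 0.16, beside 0.18 for all kept genes, and 22 of 28 were under 0.3. Both high-fat libraries lay above both control libraries in 3 genes (Slc38a2, Slc43a3 and Slc6a9), or 10.7%, beside 26.1% of all kept genes. Of these, Slc6a9 was scarce, with 13 and 16 counts in high-fat libraries against 10 and 5 in control libraries. It reached the filter level in both high-fat libraries but only 1 control library, so the filter favoured its place here. Both lay below in 6 (Slc1a5, Slc6a6, Slc36a1, Slc36a4, Slc38a6 and Slc43a2), or 21.4%, beside 24.9% of all kept genes. The other 19 overlapped. By family, the median log2 fold change was 0.21 in Slc1a (2 genes), 0.05 in Slc3a (1 gene), −0.06 in Slc6a (5 genes), 0.01 in Slc7a (10 genes), −0.33 in Slc36a (2 genes), −0.04 in Slc38a (6 genes) and 0.16 in Slc43a (2 genes). With each library left out in turn, the median took either sign in Slc1a (−0.14 to 0.53), Slc3a (−0.05 to 0.15), Slc6a (−0.17 to 0.22) and Slc7a (−0.12 to 0.17). It kept its sign in Slc36a (−0.45 to −0.23), Slc38a (−0.07 to −0.01) and Slc43a (0.02 to 0.29). With no filter on low counts, scarcer genes entered, and the median turned to −0.22 in Slc1a, −0.50 in Slc3a and −0.58 in Slc43a. The 2 kept genes of Slc43a had opposite signs, so its median describes neither. These medians summarise few genes, and none was tested. In summed RPKM, Slc36a was lower in both high-fat libraries (35.0 and 31.5) than in both control libraries (38.7 and 37.4), and Slc43a was too (6.94 and 5.62 against 8.19 and 7.42). The sums overlapped between diets in Slc1a, Slc3a, Slc6a, Slc7a and Slc38a.

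Libraries of the same diet also differed in these genes. The median absolute log2 ratio of replicate 1 to replicate 2 was 0.23 for the transporter genes in the high-fat pair, beside 0.15 for all kept genes, and 0.24 in the control pair, beside 0.17. Control replicate 1 was above control replicate 2 in 22 of 28 transporter genes, beside 51.3% of all kept genes, and high-fat replicate 1 was above high-fat replicate 2 in 14 of 28, beside 54.9%. Some genes were low in high-fat replicate 1 and high in control replicate 1, each against the other library of its diet. Others, such as Slc38a7 and Slc38a10, were higher in replicate 1 of both diets. Of the first kind, the log2 ratio was −1.06 in the high-fat pair and 1.0 in the control pair for Slc1a4. In that order it was −1.04 and 0.73 for Slc7a3, −0.52 and 0.95 for Slc6a9, −0.45 and 0.71 for Slc7a5, and −0.20 and 0.59 for Slc7a1. Slc1a4, Slc7a3 and Slc6a9 are scarce, with 38 to 120, 14 to 39 and 5 to 16 counts per library. Slc7a5 and Slc7a1 are not, with 187 to 342 and 1096 to 1712. All genes named here were picked after their values were seen, so neither pattern has a test.

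**Figure D3:**
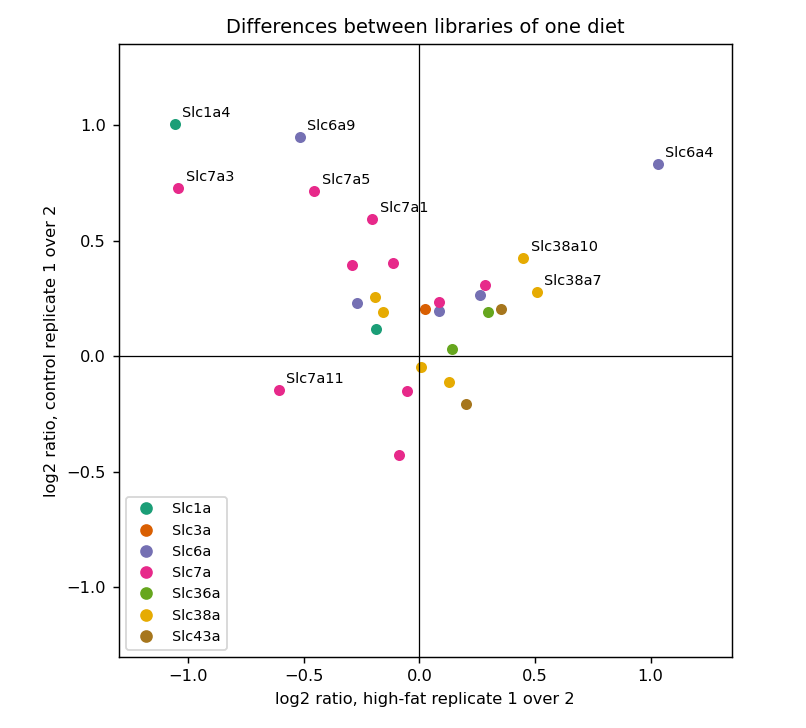
Log2 ratio of replicate 1 to replicate 2 in the high-fat libraries (x axis) and the control libraries (y axis), 1 point per kept transporter gene, coloured by family. Most points lie above 0 on the y axis (22 of 28), and Slc1a4, Slc7a3, Slc6a9, Slc7a5 and Slc7a1 lie in the upper left, low in high-fat replicate 1 and high in control replicate 1.

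The transporters were set beside 4 lists of genes that carry, sense or use amino acids. Amino acid carriers of other families (18 kept) held no called gene and 2 with an unadjusted p under 0.05 (11.1%, beside 17.0% of all kept genes). Slc15a3, a lysosomal carrier of histidine and short peptides, had 124 and 127 CPM with high-fat diet, against 187 and 162 CPM with control diet (−0.47 on the log2 scale, adjusted p = 0.0757). Sfxn1, a mitochondrial serine carrier, had 33.6 and 31.9 CPM against 28.4 and 26.1 CPM (0.26). The next smallest p-values belonged to Slc25a15, the mitochondrial ornithine carrier (0.27), and Sfxn2 (−0.29). Genes of amino acid sensing upstream of mTORC1 (30 kept) held no called gene, with 3 at an unadjusted p under 0.05 (10%, beside 17.0% of all kept genes). These were Sesn1, a sestrin of the leucine-sensing branch (−0.36), Lamtor3, a subunit of the lysosomal anchor of the pathway (0.34), and Lars, the leucyl-tRNA synthetase (0.26). Rheb, the GTPase that activates mTORC1, came next (0.25). The list medians were 0.02 for the carriers and −0.06 for the sensing genes.

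Genes of amino acid use (30 kept) held the only called gene of the 4 lists. Asns, asparagine synthetase, rose to 129 and 132 CPM in high-fat replicates 1 and 2, against 68.7 and 62.9 CPM in control replicates 1 and 2. The log2 fold change was 0.99 ± 0.10 with an adjusted p of 0.00623. Without control replicate 2 the adjusted p was 0.0504. Another 5 genes of that list had an unadjusted p under 0.05 without passing: Glul (0.47), Odc1 (0.45), Phgdh (0.58), Aldh18a1 (0.53) and Bcat2 (−0.55). With Asns that made 6 of 30 (20%), near the 17.0% of all kept genes. As background, Glul makes glutamine, Odc1 polyamines, Phgdh serine and Aldh18a1 a proline precursor, and Bcat2 acts in branched-chain amino acid breakdown. The list median was 0.02, with 15 genes above 0 and 15 below. Regulators of the amino acid starvation response (15 kept) held no called gene and 2 with an unadjusted p under 0.05 (13.3%, beside 17.0% of all kept genes). Atf4, the factor that drives Asns and many carriers in starved cells, had 332 and 328 CPM with high-fat diet, against 281 and 272 CPM with control diet (0.26, unadjusted p = 0.0239). Atf3, a factor induced downstream of it, had 467 and 527 CPM with high-fat diet, against 595 and 594 CPM with control diet (−0.26). Ddit3 (−0.24) and Ddit4 (1.04), genes induced by stress, had the next smallest p-values, and Ddit4 was at 0.28 and 0.30 CPM against 0.17 and 0.10 CPM. The promoter of Asns is printed to set beside that of Slc7a11: the letters TGATGNAA start 23 bases before its start, in capitals (RefSeq, GRCm38.p6).
Asns, chr6:7693210-7693309, minus strand: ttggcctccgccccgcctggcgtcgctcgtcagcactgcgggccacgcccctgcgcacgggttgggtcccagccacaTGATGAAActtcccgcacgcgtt

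**Figure D4:**
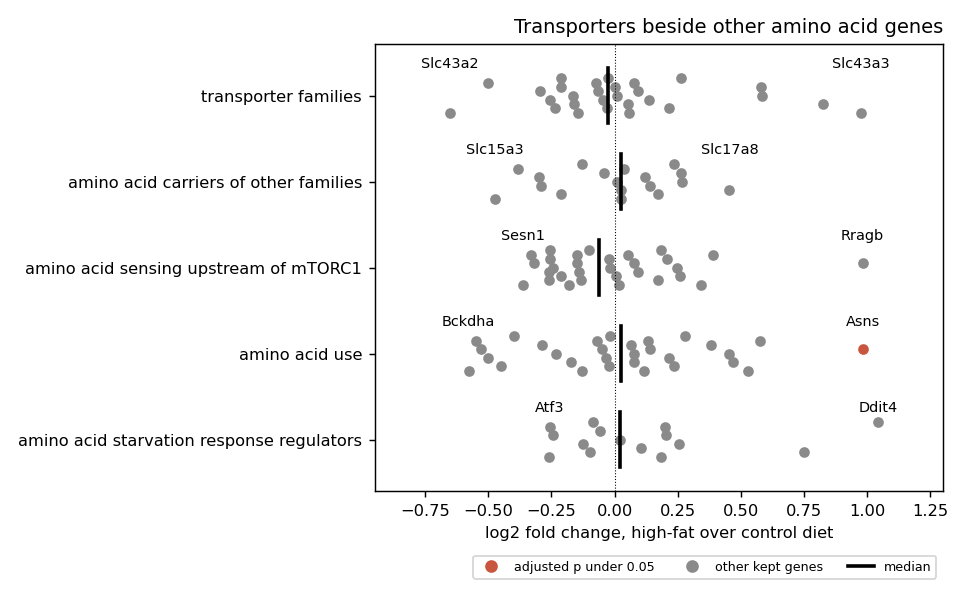
Log2 fold change, high-fat over control diet, of the kept genes of the transporter families and of 4 related lists, with the median as a bar and the lowest and highest gene named. Asns (0.99), in red, is the only gene drawn that passed an adjusted p of 0.05; each median lies between −0.06 and 0.02.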

How the data were processed

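Paired-end reads of rRNA-depleted total RNA from 4 libraries were counted per gene by the authors, and the deposited values are raw counts with no normalization. TopHat2 2.0.10, Cufflinks 2.1.1, HTSeq and mm9 are named, per the submitters' processing notes; the sources used here give no strand setting, so counts of genes whose exons overlap those of another gene (Slc6a9, Slc7a7, Slc3a1, Slc7a10 and Slc7a15) are uncertain. The authors' deposited gene models gave mm9 positions and merged exon lengths. Alignments at several places made up 37.5% to 48.5% of counted lines, reads in no gene 13.5% to 15.0% and ambiguous reads 0.664% to 0.823%; these name no gene and were left out.

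Genes were kept by filterByExpr (minimum count 10, minimum total 15), and 12747 were tested with edgeR 4.0.16 (R 4.3.3; TMM, robust quasi-likelihood, 2 residual degrees of freedom), adjusted by Benjamini-Hochberg with a threshold of 0.05. The standard error is the absolute log2 fold change over the square root of F. The test was checked on simulated data. Replicates differed beyond sampling noise (chi-square per degree of freedom 28.9 for the high-fat and 27.7 for the control pair), so each counted as 1 library. Alternatives used DESeq2 1.42.0, limma 3.58.1 (voom), other filters and scaling, a replicate block, and each library left out, keeping the same genes.

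The transporter genes, the pathway lists and the marker lists were chosen with earlier results of these data known. All 64 genes are in the counts, and 1 is not reported here by name. Values of all libraries are given for genes with an unadjusted p under 0.05, the 10 highest by RPKM, the highest of each family, Slc3a2, kept Slc7a genes and Slc38a9. Other values were chosen after being seen. Of the pathway lists, called genes or else the 4 with the smallest p are named, with others under an unadjusted p of 0.05.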

Additional observations from a re-analysis of the deposited data

How the results depend on the processing

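With 2 libraries per diet, the calls depended on the method. Of all 12747 genes, 78 were called, against 366 with DESeq2, 46 with a filter of 1 CPM in 2 libraries, 522 with no filter and 28 with limma-voom; leaving out a library gave 3 to 823. Of the transporter genes 0 were called (4 at an unadjusted p under 0.05), against 2 with DESeq2, 2 with no filter and 0 with limma-voom, and 0 to 5 with a library left out. Carriers of other families held 0 calls, against 1 with DESeq2 and 1 with no filter (0 to 1 with a library left out); sensing genes held 0 (0 to 1). Amino acid use held 1, against 3 with DESeq2 and 4 with no filter (0 to 5). The median log2 fold change of the transporter genes was −0.12 to 0.10 with a library left out. The cause of these differences was not tested.

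Replicate numbers give no stated pairing (correlation of same-numbered deviations 0.0888). With replicate as a block, 113 genes were called, among them 1 transporter gene, Slc43a2 (adjusted p = 0.0387).

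Asns, the called gene, kept its direction under all 12 alternatives. Among uncalled genes, Slc7a6os turned to −0.0044 with the CPM filter, −0.0019 with no filter and −0.0029 without overlapping genes. With a library left out, log2 fold changes crossed 0 in Slc1a4 (−0.030 to 1.17), Slc38a1 (−0.063 to 0.19), Slc38a7 (−0.49 to 0.019), Slc38a9 (−0.092 to 0.035), Slc3a2 (−0.045 to 0.15), Slc6a4 (−0.76 to 0.32), Slc6a8 (−0.043 to 0.22), Slc6a12 (−0.20 to 0.069), Slc7a1 (−0.19 to 0.40), Slc7a3 (−0.018 to 1.02), Slc7a5 (−0.10 to 0.61), Slc7a6os (−0.077 to 0.078), Slc7a7 (−0.14 to 0.16), Slc7a8 (−0.21 to 0.18), Slc7a11 (−0.59 to 0.018) and Slc7a14 (−0.28 to 0.15). Low counts limit the precision of scarce carriers: the log2 fold change of Slc6a9 had a standard error of 0.54, against 0.15 for Slc36a1.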
